A study of Drosophila mettleri with 18 samples.

Results

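The transcripts described here are 150 assembled genes of the fly Drosophila mettleri whose RNA was lower in larvae reared on prickly pear than in larvae of the same strain reared on lab food or on saguaro. They were chosen by their measured levels from a table of 15947 assembled genes. The level used for the choice was the log2 of a library's count after division by a size factor (the median ratio of its counts to the geometric mean of each gene over the libraries) and addition of a pseudocount of 8. Of all assembled genes, 930 had a lower level on prickly pear than on both other foods in each of the 6 strains, and 909 of these lay outside the 100 genes with the highest mean level. The mean levels on lab food and saguaro were less than 0.8 apart in 847 of them. In 450 of those the mean on prickly pear was at least 0.8 below the lower of the other foods, and the 150 with the largest such difference were kept. The last gene kept had a difference of 1.4911 and the first one left out 1.4909, so 300 further genes met every condition with smaller differences.

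RNA sequencing was done on pools of 10 larvae aged 8 days, with no dissection named in the labels. The prickly pear group held 6 libraries from larvae reared on coastal prickly pear cactus, the lab food group 6 from larvae on Drosophila 4-24 Instant food, and the saguaro group 6 from larvae on saguaro cactus. In each food group, 3 libraries came from the Santa Catalina Island strains (C-M, C-7, C-9) and 3 from the Sonoran ones (T-22, T-27, T-28). Each strain was thus reared on all 3 foods, and a strain, not a single larva, was the replicate. The labels name no genetic change and no drug.

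Drosophila mettleri is a desert fly whose larvae feed in rotting cactus and in soil soaked by cactus juice. Saguaro is a columnar cactus of the Sonoran Desert that contains alkaloids, and prickly pear is a flat-stemmed cactus of another lineage. A messenger RNA level in a whole larva is set by how much of the RNA is made and how fast it decays in each cell, and by how many cells of each type the larva holds. In these bulk samples, fewer cells of a type and less RNA per cell cannot be told apart. The files name assembled genes only by the component of the de novo assembly and a number within it, so no protein or role is given for any of them.

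Library totals lay between 6769906 counts (strain T-27 on saguaro) and 16115982 counts. The 100 highest genes held 35.0% to 47.0% of the counts on prickly pear, 46.1% to 50.8% on lab food and 46.9% to 56.2% on saguaro. All 150 members passed the filter on low counts, which left 12514 genes for testing. Of the members, 1 had no count in the C-7 library on prickly pear and 1 had none in the C-9 library on prickly pear, and no member was at 0 in any other library.

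Together the 150 members held 0.442% to 1.66% of a library's counts on prickly pear, 2.59% to 4.23% on lab food and 1.92% to 4.26% on saguaro. The mean share was 1.06% ± 0.427 on prickly pear, 3.33% ± 0.569 on lab food and 2.98% ± 0.865 on saguaro (SD, n = 6 each). All 6 prickly pear libraries lay below all 12 others, as the choice of members favours, while the lab food and saguaro libraries overlapped. A 95% Clopper-Pearson interval of a share was at most 0.0259 percentage points wide, which covers counting error only, so the spread between strains was far larger than counting error. The share on prickly pear relative to lab food was 0.421 in C-M, 0.639 in C-7, 0.127 in C-9, 0.245 in T-22, 0.412 in T-27 and 0.198 in T-28. Relative to saguaro it was 0.354 in C-M, 0.775 in C-7, 0.104 in C-9, 0.294 in T-22, 0.427 in T-27 and 0.435 in T-28.

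The size factor of a library relative to its total (the factor divided by the total, on the scale of CPM) moved with these shares. It was 0.0885 to 0.129 on prickly pear, 0.0609 to 0.0842 on lab food and 0.0513 to 0.0891 on saguaro. In each food the library with the highest such ratio had the smallest member share: C-9 on prickly pear (0.129), C-7 on lab food (0.0842) and T-28 on saguaro (0.0891). Its part in the members' levels was not tested. With library totals alone as the scale, the members' median log2 difference was -1.61 between prickly pear and lab food and -1.44 between prickly pear and saguaro. On that scale the median of all tested genes was 0.72 against lab food and 0.68 against saguaro.

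**Figure D1:**
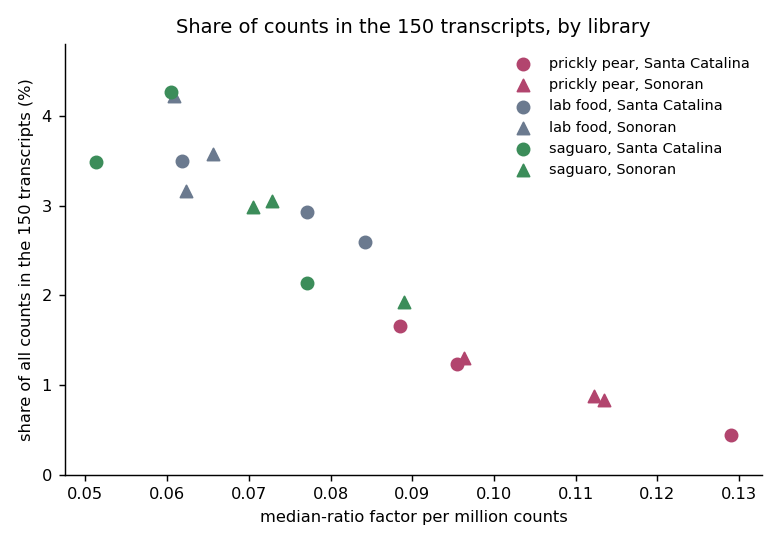
Percentage of each library's counts held by the 150 members (y axis) against the library's size factor relative to its total (x axis); each point is 1 library, coloured by food and shaped by population. The prickly pear libraries lie between 0.442% and 1.66% at ratios of 0.0885 to 0.129, and the other libraries between 1.92% and 4.26% at ratios of 0.0513 to 0.0891.

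**Figure D2:**
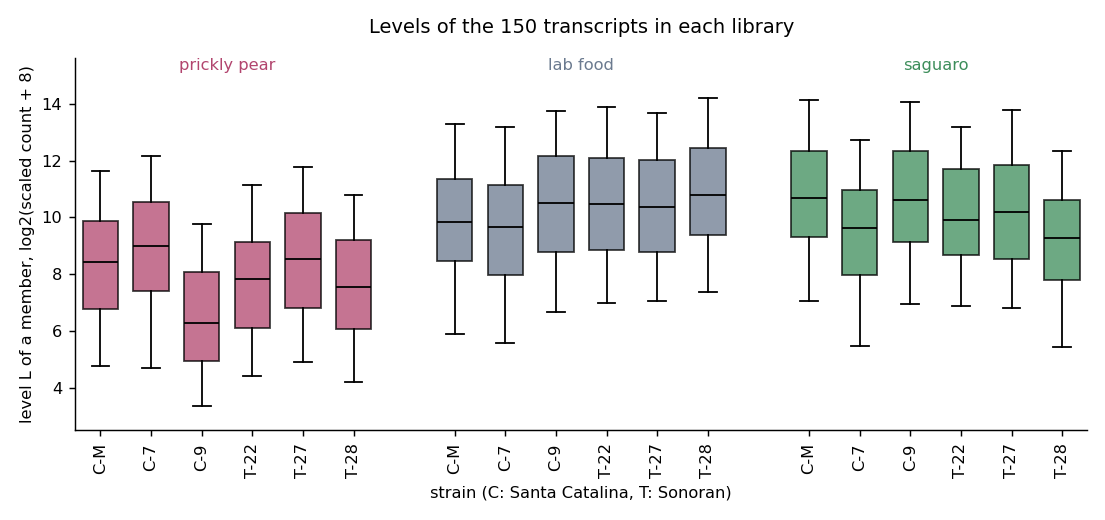
Level of the 150 members in each library, as log2 of the scaled count plus 8, grouped by food; boxes are quartiles with the median and whiskers run from the 5th to the 95th percentile. Every prickly pear median sits below the medians of the same strain on the other foods, by the least in C-7 and by the most in C-9.

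The members were abundant on the foods where they were higher. Their median was 22.55 CPM (the count scaled to a common library size with TMM factors, not corrected for gene length) on prickly pear, against 103.9 CPM as the mean of lab food and saguaro. For all genes tested the medians were 8.936 CPM on prickly pear and 8.715 CPM on lab food and saguaro, and 88.9% of all tested genes lay below the members' median on lab food and saguaro. On lab food and saguaro, 9 members had under 10 CPM, 64 had 10 to 100, 69 were in the next decade and 8 lay above it. On prickly pear 105 members, and on the other foods 142, were above the median of all tested genes on the same foods. The pseudocount of 8 in the choice keeps genes with few counts from reaching large differences. How much of the members' abundance this accounts for was not tested.

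The gene with the largest difference in the choice was comp37757_c0. Its lowest, median and highest levels were 0.889, 23.1 and 69.2 CPM on prickly pear, 35.8, 514 and 2133 CPM on lab food and 30.2, 226 and 1375 CPM on saguaro. The food groups overlapped, since C-M on prickly pear (69.2 CPM) lay above C-7 on lab food (35.8 CPM) and T-28 on saguaro (30.2 CPM). The fitted log2 difference was -4.20 (SE 1.12) against lab food and -3.72 (SE 1.10) against saguaro. Its adjusted p in edgeR was 0.0119 against lab food, a call lost in 2 of 13 other settings (without T-22 and without T-28). Against saguaro it was 0.0303, a call lost in 8 of 13: with the strain block, without any 1 of the strains other than C-7, and without either of 2 single libraries. The component of comp37757_c0 also holds comp37757_c1, named after its values were seen. That gene averaged 3538 CPM on prickly pear, 9584 CPM on lab food and 5184 CPM on saguaro. Its log2 difference was -1.44 against lab food (adjusted p of 0.0531 in edgeR) and -0.58 against saguaro (adjusted p of 0.439 in edgeR). In C-7 it was higher on prickly pear (8391 CPM) than on lab food (6375 CPM) or saguaro (6270 CPM).

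The next largest was comp34722_c0, with 0.278, 22.2 and 41.7 CPM on prickly pear (lowest, median, highest), 53.9, 241 and 444 CPM on lab food and 82.8, 123 and 306 CPM on saguaro. Here every prickly pear library was below every other library. The log2 difference was -3.53 (SE 0.893) against lab food and -2.97 (SE 0.872) against saguaro. The adjusted p in edgeR was 0.00919 against lab food, which held in all 13 other settings, and 0.0295 against saguaro. The saguaro call was lost in 6 of 13: with the strain block, without C-M or any 1 Sonoran strain, and without the T-27 library on saguaro.

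The member with the highest mean CPM over lab food and saguaro was comp36310_c0. It had 32.4, 350 and 973 CPM on prickly pear (lowest, median, highest), 1266, 1794 and 2696 CPM on lab food and 1266, 1775 and 3632 CPM on saguaro. The groups did not overlap, and the log2 difference was -2.30 (SE 0.572) against lab food and -2.42 (SE 0.574) against saguaro. The next by that mean, comp21107_c0, had 53.9, 290 and 421 CPM on prickly pear, 827, 1624 and 2319 CPM on lab food and 680, 1683 and 2607 CPM on saguaro. Its log2 difference was -2.56 (SE 0.477) against lab food and -2.57 (SE 0.477) against saguaro. No prickly pear library of comp21107_c0 reached the lowest of the other 12. Against saguaro, comp36310_c0 was no longer called without C-M, T-22 or T-28 and comp21107_c0 without C-M or T-22, and against lab food comp36310_c0 was not called without T-22 or T-28. On prickly pear itself the order of levels was different: comp21046_c0, named after its values were seen, averaged 446 CPM there, against 407 CPM for comp36310_c0 and 267 CPM for comp21107_c0. In all, 70 members had this full separation of 6 libraries from 12, as did 266 genes of the whole table.

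**Figure D3:**
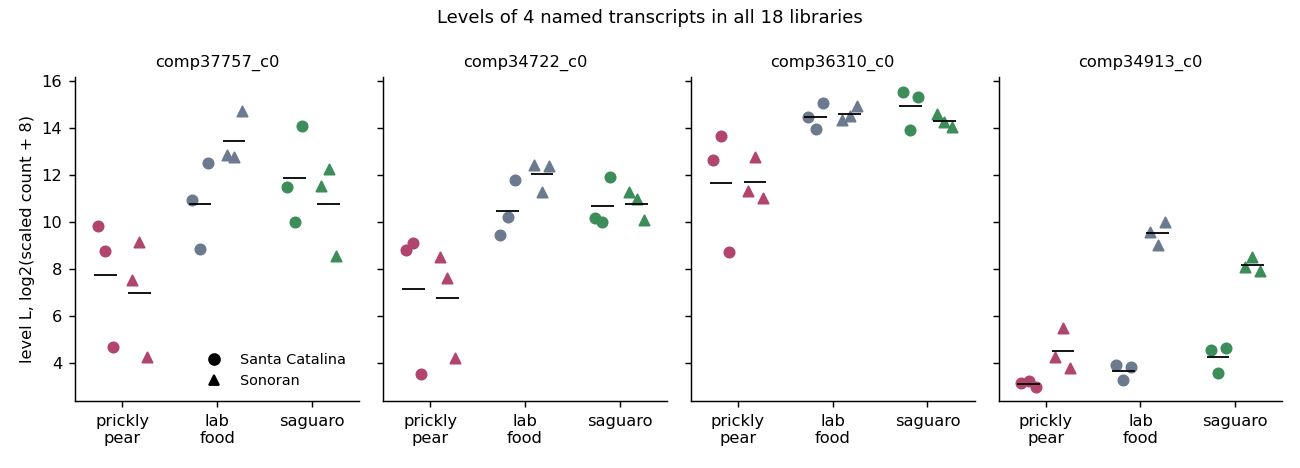
Level (log2 of the scaled count plus 8) of 4 named members in each library, by food; circles are Santa Catalina strains, triangles Sonoran strains, and horizontal bars the mean of 3 libraries. comp34722_c0 and comp36310_c0 keep all prickly pear libraries below the others, comp37757_c0 overlaps between foods, and comp34913_c0, described with the populations, is low in Santa Catalina on every food.

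Because the choice used the contrasts between foods, their tests describe the members and give no independent evidence. In edgeR's quasi-likelihood test, 149 of 150 members were called lower on prickly pear than on lab food (Benjamini-Hochberg adjusted p below 0.05), where 18.9% of all tested genes were. The member that was not called, comp33297_c0, had a log2 difference of -1.53 and an adjusted p of 0.0546 in edgeR, and is named because of that value. The members' median log2 difference was -2.18 (range -5.29 to -1.33), against 0.08 over all genes tested. Against saguaro, 150 of 150 were called lower (13.9% of all tested genes), with a median of -2.03 against 0.07 over all genes. Without C-M, or without T-22, no member was called lower than on saguaro, nor was any other tested gene (0% in both fits), while the members' median was -1.91 without C-M and -1.85 without T-22. Between saguaro and lab food 0 members were called in edgeR (0.36% of all tested genes in either direction), 1 had an unadjusted p below 0.05 (10.2% of all tested genes did), and the median was -0.12; the choice had required these foods to be close.

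In the Santa Catalina strains alone the members' median log2 difference was -1.83 between prickly pear and lab food and -2.23 between prickly pear and saguaro. In the Sonoran strains it was -2.47 against lab food and -1.86 against saguaro. Counts of calls were uneven: in Santa Catalina 1 member was called lower against lab food (0.416% of all tested genes) and 91 against saguaro (6.38%), while in Sonoran 138 were called lower against lab food (14.4%) and 0 against saguaro (0.00799%). The single Santa Catalina call against lab food was comp21470_c0, named for that reason. For the count of 0 in Sonoran, 136 members were lower with an unadjusted p below 0.05 in edgeR (9.01% of all tested genes were) and the smallest adjusted p was 0.0514. The population difference itself is tested further on.

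The size of the difference varied widely between strains. The median difference between prickly pear and lab food was -1.39 in C-M, -0.50 in C-7, -3.66 in C-9, -2.64 in T-22, -1.81 in T-27 and -3.00 in T-28. Against saguaro it was -2.29 in C-M, -0.56 in C-7, -3.88 in C-9, -2.30 in T-22, -1.49 in T-27 and -1.41 in T-28. The medians of all tested genes in the same pairs lay between -0.04 and 0.14. The SD of the members' median over the 6 strains was 1.15 against lab food and 1.13 against saguaro.

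C-9 had the largest difference for 142 of 150 members and C-7 the smallest for 127, both of them Santa Catalina strains. Taking for each member the smaller of its differences to the other foods, the median was 12.1-fold in C-9 and 1.27-fold in C-7. More than 1 log2 unit was reached by 109 members in C-M, 7 in C-7, 148 in C-9, 148 in T-22, 122 in T-27 and 119 in T-28. Among the prickly pear libraries, C-7 had the highest level of 111 members and C-9 the lowest of 124. The order of lab food and saguaro also differed between strains: saguaro was the higher in C-M for 138 members, in C-7 for 76, in C-9 for 95, in T-22 for 51, in T-27 for 40 and in T-28 for 0.

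**Figure D4:**
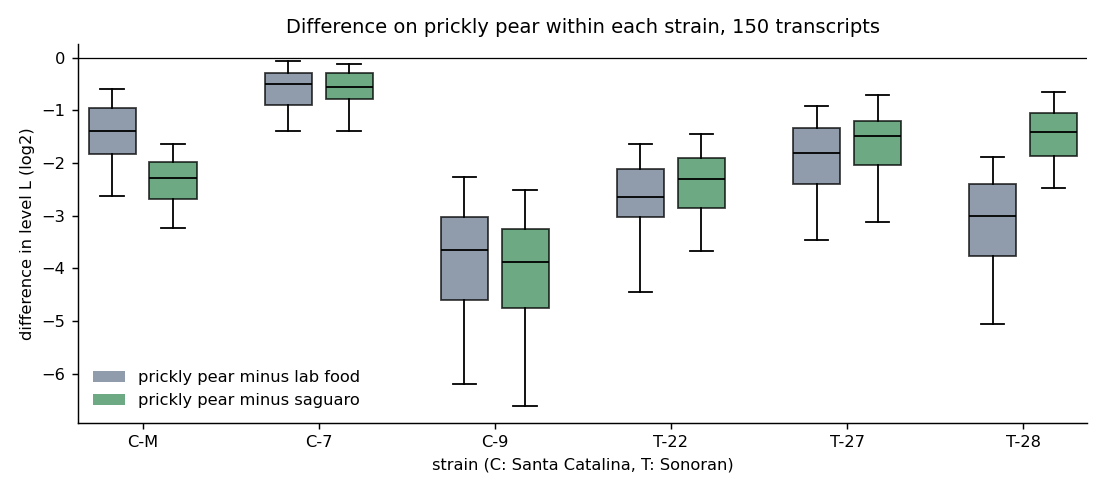
Difference in level (log2) of the 150 members between prickly pear and each other food within a strain; boxes are quartiles with the median and whiskers run from the 5th to the 95th percentile. C-7 lies closest to 0 (median -0.50 against lab food) and C-9 farthest (median -3.66).

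The same choice was repeated with each strain left out, and the chosen genes were then read in the strain that had not been used. Of 150 genes so chosen, 140 were lower on prickly pear than on both other foods in C-M, where 25.4% of all genes of the table were. In C-7, 81 of 150 were, against 26.3% of all genes. In C-9 and in T-22 all 150 were lower, against 33.5% of all genes in C-9 and 29.7% in T-22. In T-27 the number was 147 (29.7% of all genes) and in T-28 it was 145 (29.3%). The median difference in the strain not used was 1.18 in C-M, 0.05 in C-7, 3.31 in C-9, 2.18 in T-22, 1.42 in T-27 and 1.37 in T-28. Genes chosen in the Sonoran strains alone were lower in all 3 Santa Catalina strains in 78 of 150 cases (8.68% of all genes), and the strains differed: 135 in C-M, 83 in C-7 and 150 in C-9. Genes chosen in the Santa Catalina strains alone were lower in all 3 Sonoran strains in 143 of 150 cases (14.8% of all genes). The lists were not the same genes: 80 of the 150 chosen without C-7 were members, and 122 to 142 of those chosen without 1 of the other strains. With 1 strain left out, at least 140 of 150 chosen genes were thus lower on prickly pear in every left-out strain but C-7. In C-7 the median difference was close to 0. A left-out strain has a single library on each food, and the members move together within a library, as described below. These counts are therefore not 150 separate observations. The shares of all genes include genes with few counts and were not matched to the chosen genes by level.

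Food accounted for a median of 64.7% of a member's variance in level over the 18 libraries, against 30.8% over all genes tested; the choice favours this. Strain accounted for 9.23% (22.3% over all tested) and population for 0.630% (2.67%). These shares are not adjusted for the number of groups (3 foods, 6 strains, 2 populations), so they cannot be ranked against each other. A food share raised by the choice also leaves less for strain and population.

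Within the groups of a population on a food, the members moved together. The choice used the same levels, and C-9 had the largest difference for 142 members, so it may favour genes that move together. When the 6 group means were subtracted, the median correlation was 0.681 over the 11175 pairs of members, and 98.9% of pairs were above 0, the lowest at -0.415. Over all pairs of tested genes the median was 0.002. These are correlations over 18 libraries that share pools, size factors and depth between genes, so they are a description. The members' mean deviation was most negative in C-9 on prickly pear (-1.39) and most positive in C-7 on prickly pear (0.95). Of the members, 118 had a correlation over 0.7 with that mean deviation, against 945 of the other 12364 tested genes (7.64%), and 316 of the others (2.56%) were below -0.7. The members' median biological coefficient of variation in edgeR was 0.504, against 0.258 over all tested genes. The members' median variation between strains on a food was thus above that of all tested genes, and most pairs moved in the same direction. How much of this the choice built in was not tested.

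The populations were compared on each food, a contrast that the choice had not used as such. The choice did use the same libraries. It asked for a lower level on prickly pear in each strain and for close means of lab food and saguaro over both populations. How far these conditions shape the differences and signs given here was not tested. On prickly pear, 0 members were called in edgeR (0.04% of all tested genes in either direction), 8 of 150 had an unadjusted p below 0.05 (3.16% of all tested genes did) and DESeq2 called 1, comp34913_c0 (0.264% of all genes it tested). The median log2 difference between Santa Catalina and Sonoran was 0.20 (-0.03 over all genes), with 98 members positive. This median turned on single libraries: it was -0.36 without the C-7 library on prickly pear and 0.64 without the C-9 library on prickly pear. On lab food the median was -0.53 (0.02 over all genes), with 126 of 150 members lower in Santa Catalina, and it lay between -0.89 and -0.41 with any library left out. On saguaro the median was 0.57 (-0.06 over all genes), with 126 of 150 members higher in Santa Catalina, and it lay between 0.29 and 0.83 with any library left out. Thus 105 members (70.0%) were lower in Santa Catalina than in Sonoran on lab food and higher on saguaro, against 26.97% of all tested genes, and 3 members showed the opposite pair of signs. Single members seldom passed the test: 1 on lab food (0.128% of all tested genes) and 1 on saguaro (0.136%). Since the members move together within a library, these counts of signs are not 150 separate observations.

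**Figure D5:**
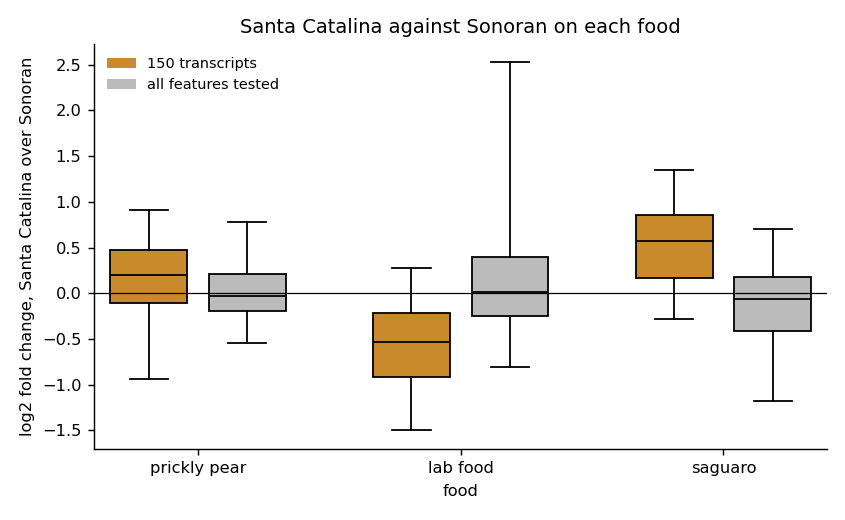
Log2 fold change of Santa Catalina over Sonoran on each food, for the 150 members and for all genes tested; boxes are quartiles with the median and whiskers run from the 5th to the 95th percentile. The members' median is 0.20 on prickly pear, -0.53 on lab food and 0.57 on saguaro, while the medians of all genes stay between -0.06 and 0.02.

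The member called in both of those comparisons was comp34913_c0, which was low in Santa Catalina on every food. On lab food it had 8, 2 and 6 counts in C-M, C-7 and C-9, against 802, 449 and 912 counts in T-22, T-27 and T-28. In CPM this was 0.403 ± 0.240 in Santa Catalina and 61.1 ± 20.8 in Sonoran (SD, n = 3 each), a log2 fold change of -7.25 (SE 0.713) with an adjusted p of 0.000149 in edgeR. On saguaro it had 11, 4 and 16 counts in the Santa Catalina strains, against 224, 178 and 218 counts in the Sonoran strains. The log2 fold change was -4.60 (SE 0.636) with an adjusted p of 0.00669 in edgeR. On prickly pear it had 1, 2 and 0 counts in the Santa Catalina strains, against 16, 41 and 7 counts in the Sonoran strains, and no fold is given at these counts (adjusted p of 0.183 in edgeR, 0.00521 in DESeq2). The populations did not overlap on any food. In Santa Catalina its difference between foods therefore rests on few counts, such as 2 on prickly pear, 2 on lab food and 4 on saguaro in C-7. It was also the 1 member called when the counts of a strain were summed over its foods and 3 Santa Catalina strains were set against 3 Sonoran ones (0.0914% of 13129 tested genes). That log2 fold change was -6.02 (SE 0.330), with an adjusted p of 0.00162 in edgeR. The call on saguaro was lost when the fit held only the 6 saguaro libraries, with an adjusted p of 0.131 in edgeR.

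On prickly pear the member with the smallest p among those higher in Santa Catalina was comp33722_c0. It had 19.2, 24.0 and 4.50 CPM in C-M, C-7 and C-9, against 2.99, 8.05 and 4.99 CPM in T-22, T-27 and T-28. The populations overlapped, and the log2 fold change of 1.58 (SE 0.604) had an adjusted p of 0.9997 in edgeR.

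Whether the populations differed in their response to prickly pear relative to lab food was tested as an interaction. In edgeR 0 members were called (0% of all tested genes), as in DESeq2, and 4 had an unadjusted p below 0.05 (4.44% of all tested genes did). All 4 had a positive interaction, which for members means the smaller difference in Santa Catalina. Of all tested genes, 1.05% had a positive interaction with such a p. The median interaction was 0.73 (-0.10 over all genes), and 131 members had the larger difference in Sonoran. It was -0.02 without C-7, 1.45 without C-9 and 0.43 without T-28, so this median turned on single strains. The smallest p was that of comp33722_c0, with an interaction of 2.09 (SE 0.832, adjusted p of 0.852 in edgeR). In the other direction comp29285_c0 had -2.60 (SE 1.33, adjusted p of 0.852 in edgeR). Its levels were 12.2, 10.0 and 5.84 CPM on prickly pear and 327, 18.6 and 239 CPM on lab food in C-M, C-7 and C-9. In T-22, T-27 and T-28 they were 21.2, 75.3 and 12.3 CPM on prickly pear and 48.5, 182 and 144 CPM on lab food.

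The same test for saguaro relative to lab food gave 0 called members (0% of all tested genes) in edgeR and 0 in DESeq2, which called 3.02% of the genes it tested. An unadjusted p below 0.05 was found for 20 members (18.4% of all tested genes), all 20 positive, that is with the higher ratio of saguaro to lab food in Santa Catalina (5.75% of all tested genes). The median interaction was 1.07 (-0.06 over all genes), and 143 members were positive. It remained positive with any strain left out, at 0.71 without C-M and 0.68 without T-28 as the lowest values. The choice had asked for close means of lab food and saguaro over both populations, and its part in these signs was not tested. The member with the smallest p, comp38899_c2, had 627, 357 and 1102 CPM on saguaro and 305, 291 and 699 CPM on lab food in C-M, C-7 and C-9. In T-22, T-27 and T-28 it had 388, 532 and 324 CPM on saguaro and 1197, 669 and 1143 CPM on lab food. Every Santa Catalina strain thus had more on saguaro and every Sonoran strain less, and the interaction was 1.96 (SE 0.660), which missed the threshold with an adjusted p of 0.201 in edgeR. The lowest p in the other direction belonged to comp39621_c0, at -1.23 (SE 0.862, adjusted p of 0.477 in edgeR). Against saguaro, 114 members had the larger difference on prickly pear in Santa Catalina.

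The members came from 144 assembly components, of which 139 held 1 member, 4 held 2 and 1 held 3. No other gene of the component was in the table for 105 members (70%), against 57.1% of tested genes that stood alone. The components of the other 45 held 78 further genes that are not members, and 76 of these were tested. Genes of a component share sequence, so reads could be divided between them and their separate levels are uncertain. Of the 76, 28 fell on prickly pear against lab food (36.8%, with 18.9% of all tested genes called lower), 10 rose (13.2%, with 19.5% of all tested genes called higher), and the median log2 fold change was -0.29. Against saguaro 26 fell (34.2%, with 13.9% of all tested genes called lower) and 4 rose (5.26%, with 6.24% called higher), with a median of -0.16. The share of neighbours that rose was thus below that of all tested genes against lab food and close to it against saguaro. Of the 78, 8 met the conditions of the choice with a smaller difference and 4 were among the 100 highest genes.

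Component neighbours ranged from larger falls than most members had to rises. The neighbour comp39850_c1 averaged 19.9 ± 10.6 CPM on prickly pear and 443 ± 295 CPM on lab food (SD, n = 6 each), and its log2 change of -4.30 had an SE of 0.761 and an adjusted p of 0.00207 in edgeR. The neighbour comp39682_c11 averaged 182 ± 189 CPM on prickly pear and 2518 ± 1084 CPM on lab food, a change of -3.80 (SE 0.775, adjusted p of 0.00347 in edgeR). In the opposite direction, comp33771_c0 averaged 25.7 ± 9.27 CPM on prickly pear and 10.9 ± 3.65 CPM on lab food, with a change of 1.24 (SE 0.275, adjusted p of 0.00494 in edgeR). A rise was also found for comp39239_c4, at 72.2 ± 21.7 CPM on prickly pear and 32.4 ± 6.90 CPM on lab food (1.16, SE 0.241, adjusted p of 0.00371 in edgeR). Against saguaro neither rise was called. The change there was 0.62 for comp33771_c0 (adjusted p of 0.105 in edgeR) and 0.63 for comp39239_c4 (adjusted p of 0.0722 in edgeR). The component of comp39239_c4 also holds comp39239_c1, the last member kept.

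The component with 3 members, comp35090, was looked at after its values were seen. Its members comp35090_c1, comp35090_c2 and comp35090_c3 averaged 119, 26.2 and 12.2 CPM on prickly pear, against 357, 77.1 and 35.0 CPM on lab food, and their log2 differences were -1.56, -1.54 and -1.50. The remaining gene of that component, comp35090_c0, averaged 74.4 ± 10.3 CPM on prickly pear, 89.3 ± 16.3 CPM on lab food and 79.6 ± 7.27 CPM on saguaro. It fell by 0.26 against lab food on the log2 scale (adjusted p of 0.0386 in edgeR) and differed by -0.11 from saguaro (adjusted p of 0.402 in edgeR). Within that component 3 genes thus shared nearly the same difference and the other lay close to 0.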

How the data were processed

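The authors deposited raw counts, whole numbers for each assembled gene, made from reads assembled de novo with Trinity and merged over the sequences of each gene, per the labels and the series' design text. Which program counted the reads is not given in the sources used here; edgeR is named in the submitters' processing notes. Every library was split over both sequencing lanes. Members and named genes were chosen with earlier results of these data known. Counts were filtered with filterByExpr and scaled with TMM, and a model of 6 group means over 18 libraries (12 residual degrees of freedom) was tested with edgeR 4.0.16 in R 4.3.3; p-values were adjusted by Benjamini-Hochberg over all genes tested. SE is the log2 fold change divided by the square root of F. Counts summed per strain served the comparison of populations over foods. DESeq2 1.42.0 and limma 3.58.1 gave alternatives. Scripts were tested on simulated data. Named were the pairs with the largest difference and the highest CPM, the called member or the smallest p per comparison and direction (at least 5 CPM on the higher side for called ones), and the called component neighbours with the largest change; other names are said to follow their values.

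Libraries are paired across foods by strain, because the labels name the same 6 fly strains on each food. Deviations of same-strain libraries had a median correlation of 0.133 (-0.243 to 0.636, over 0.1 in 12 of 18 pairs). Replicate libraries differed by far more than sampling noise (chi-square per degree of freedom at least 26.6). Nothing says that strains were reared in separate batches. The main model had no term for strain, and each strain had a single library on each food. The p-values thus measure the spread between libraries of different strains on a food, in which strain, rearing and pool cannot be told apart.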

Additional observations from a re-analysis of the deposited data

Results flagged for a closer look

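In the 6 prickly pear libraries, the level of comp21107_c0 in C-9 stood apart from the others: it was 9.434 (log2 of the scaled count plus 8), against 11.32 to 12.45 in the other 5 strains. The gap was 0.627 of the group's whole range, just past the 95% critical value of Dixon's ratio for 6 samples. Of 45 such groups examined among the named genes this was the only 1 past it, and chance alone puts about 1 in 20 groups past it. C-9 on prickly pear is also the library with the lowest level of 124 members.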

How the results depend on the processing

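Leaving out a strain gave 0 to 150 members called lower on prickly pear than on saguaro (0 without C-M and 0 without T-22, where no gene at all was called; elsewhere 6.64% to 18.2% of all genes were) and 126 to 149 against lab food (9.63% to 19.9% of all genes). With strain as a replicate block, 150 members were called against lab food and 144 against saguaro, and the block changed no other count of members called, but the calls of comp37757_c0 and comp34722_c0 against saguaro were lost. Without C-9 on prickly pear 144 members, and without T-27 on saguaro 139, were called against saguaro; these settings were chosen after seeing the data. Between the populations, on prickly pear DESeq2 called 1 member (0.264% of all genes) and leaving out a library gave 0 to 1 (comp36780_c8, higher in Santa Catalina, without C-9, 0.0869% of all genes). On lab food leaving out a library gave 1 to 3 calls (3 without C-9, 4.19% of all genes) and medians of -0.89 to -0.41, and on saguaro a fit of the 6 saguaro libraries alone called 0 (0.0272% of all genes). Over foods DESeq2 called 5 of 149 members (1.91% of all genes). The choice of members kept 80 to 142 of the 150 with a strain left out, 80 of them without C-7, and 104 to 145 under its other settings. No called value reversed; calls of single genes were lost in 24 cases and gained in 1, and the cause was not tested. Medians with no call did change sign. For the populations on prickly pear they ran from -0.36 to 0.64 with a prickly pear library left out. For the populations' response to prickly pear they ran from -0.02 to 1.45 with a strain left out. Depth limits comp34913_c0, which has single-digit counts in most Santa Catalina libraries, and 3 strains per population limit every comparison between populations.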
